A study of Mus musculus with 22 samples.

Results

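The genes that encode voltage-gated sodium channels, voltage-gated calcium channels and hyperpolarization-activated (HCN) channels were followed in neuronal and glial nuclei of the mouse hippocampus 24 h after kainate injection into the other hemisphere. Members were the protein-coding genes whose symbols name a sodium channel alpha or beta subunit (Scn), a calcium channel alpha1, alpha2delta, beta or gamma subunit (Cacna, Cacnb and Cacng) or an HCN subunit (Hcn). The rule gave 44 members among the 53379 genes of the count table, and all 44 were among the 40714 genes with enough reads to be tested. The tissue was the left hippocampus of adult male C57/BL6N mice, and the right side had received either kainate above the hippocampus or NaCl as sham. Mice of the kainate group were kept in the study if they had shown convulsive seizures. Hippocampi of 8 mice per treatment were combined into 3 pools. Sorting with an antibody against NeuN, a neuronal nuclear protein, split the nuclei of a pool into a NeuN+ fraction (referred to as neurons) and a NeuN– fraction (referred to as glia, although it holds all nuclei without NeuN). This gave 3 kainate and 3 sham libraries of neurons, 3 kainate libraries of glia and 2 sham libraries of glia (replicates 1 and 3), so that the replicate is a pool of mice and p-values measure the spread between these few pools.

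Voltage-gated sodium channels carry the rising phase of the action potential, and their alpha subunits form the pore while their beta subunits modify gating and anchor the channel. Voltage-gated calcium channels couple depolarization to transmitter release, dendritic signaling and gene expression. Their alpha1 subunit forms the pore, alpha2delta and beta subunits bring it to the membrane, and several of the genes named gamma encode regulators of AMPA receptors (transmembrane AMPA receptor regulatory proteins). HCN channels open on hyperpolarization, carry a mixed inward cation current and set resting potential and dendritic integration in hippocampal neurons.

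Library totals ran from 19391118 to 45428465 counts in kainate neurons, 21282859 to 34995607 in sham neurons and 18471055 to 24732499 in kainate glia, and were 20545699 and 12058875 in sham glia. Kainate glia replicate 2 and sham glia replicate 1 had been made from 0.05 ng of RNA with 15 PCR cycles, against 1 ng and 10 cycles in the other 9 libraries. As a check of the sort, all 6 neuronal markers were higher in the NeuN+ fraction, and all 5 astrocyte, 5 microglia, 5 oligodendrocyte and 3 oligodendrocyte precursor markers were higher in the NeuN– fraction. Levels are given as CPM, counts scaled to the size of the library after TMM normalization, and levels of different genes are compared only as CPM per kb of exon.

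The level of the members is described first, in sham tissue. Among sodium channel pore subunits in sham neurons, Scn2a was highest at 37.2 ± 10.5 CPM per kb (SD, n = 3), followed by Scn8a at 28.5 ± 6.004, Scn1a at 23.2 ± 7.38 and Scn3a at 15.2 ± 3.50. Scn2a, the Nav1.2 pore of excitatory neurons, had 605, 480.5 and 337 CPM in sham neurons 1 to 3. The ranges of neighbours among these 4 central nervous system isoforms overlapped across libraries. Within each of the 3 sham neuron libraries, however, Scn8a was above Scn1a and Scn1a above Scn3a. Scn2a was above Scn8a in replicates 1 and 2 and level with it in replicate 3, at 26.46 CPM per kb for both. Levels of different genes were not tested against each other. Scn9a, best known as a channel of peripheral sensory neurons, followed apart from them at 3.07 ± 0.799 CPM per kb. The skeletal muscle gene Scn4a and the sensory neuron genes Scn10a and Scn11a had means below 1 CPM per kb in sham neurons. Of the beta subunits, Scn3b reached 82.2 ± 24.4 CPM per kb, and Scn2b and Scn4b were lower at 12.6 ± 9.51 and 4.62 ± 1.88 CPM per kb.

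Calcium channel pore genes of sham neurons were led by Cacna1e (R type) at 26.3 ± 0.608 and Cacna1a (P/Q type) at 26.0 ± 2.21 CPM per kb, which overlapped, with Cacna1b (N type) apart at 15.2 ± 1.21 CPM per kb. The T-type gene Cacna1h stood at 21.8 ± 2.23 CPM per kb, above Cacna1g at 6.30 ± 0.838 and Cacna1i at 3.81 ± 0.266, with no overlap between neighbours. Cacna1h had 210.8, 192 and 236 CPM in sham neurons 1 to 3. Of the L-type genes, Cacna1d and Cacna1c overlapped at 12.1 ± 0.937 and 10.3 ± 2.06 CPM per kb. Cacna2d3 was the leading alpha2delta gene at 33.6 ± 6.51 CPM per kb and did not overlap Cacna2d1 at 16.9 ± 5.63 CPM per kb. Cacnb3 led the beta genes at 35.6 ± 6.55 CPM per kb and overlapped Cacnb1 at 23.9 ± 5.81 CPM per kb, though Cacnb3 was higher within each library. It had 169.7, 140.9 and 117 CPM in sham neurons 1 to 3. Among gamma genes, Cacng3 at 21.6 ± 12.1 and Cacng8 at 13.95 ± 4.61 CPM per kb led, with overlapping ranges. The HCN genes Hcn2 and Hcn3 overlapped at 18.4 ± 8.62 and 12.1 ± 4.39 CPM per kb, though Hcn2 was higher within each library. Hcn4 followed at 0.916 ± 0.259 CPM per kb.

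The order differed in sham glia (n = 2). Hcn2 stood there at 46.2 ± 43.5 CPM per kb, with 77.0 in replicate 1 and 15.4 in replicate 3, against 4.84 ± 0.664 for Hcn3. Cacng4 led the gamma genes at 22.0 ± 20.0 CPM per kb, above Cacng5 at 4.73 ± 1.16 CPM per kb with no overlap. Cacnb4 led the beta genes at 12.4 ± 8.70 CPM per kb and Cacna2d1 the alpha2delta genes at 5.45 ± 2.47 CPM per kb, both overlapping the next gene. Scn2a, Cacna1d and Cacna1h led their families in glia as in neurons, and Cacna1a at 5.05 ± 0.617 CPM per kb was above Cacna1e. In sham glia 1 and 3, Scn2a had 79.8 and 58.7 CPM, Cacna1a 52.7 and 62.6 CPM and Cacna2d1 89.3 and 45.9 CPM, so that Scn2a and Cacna2d1 were higher in replicate 1 and Cacna1a in replicate 3.

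**Figure D1:**
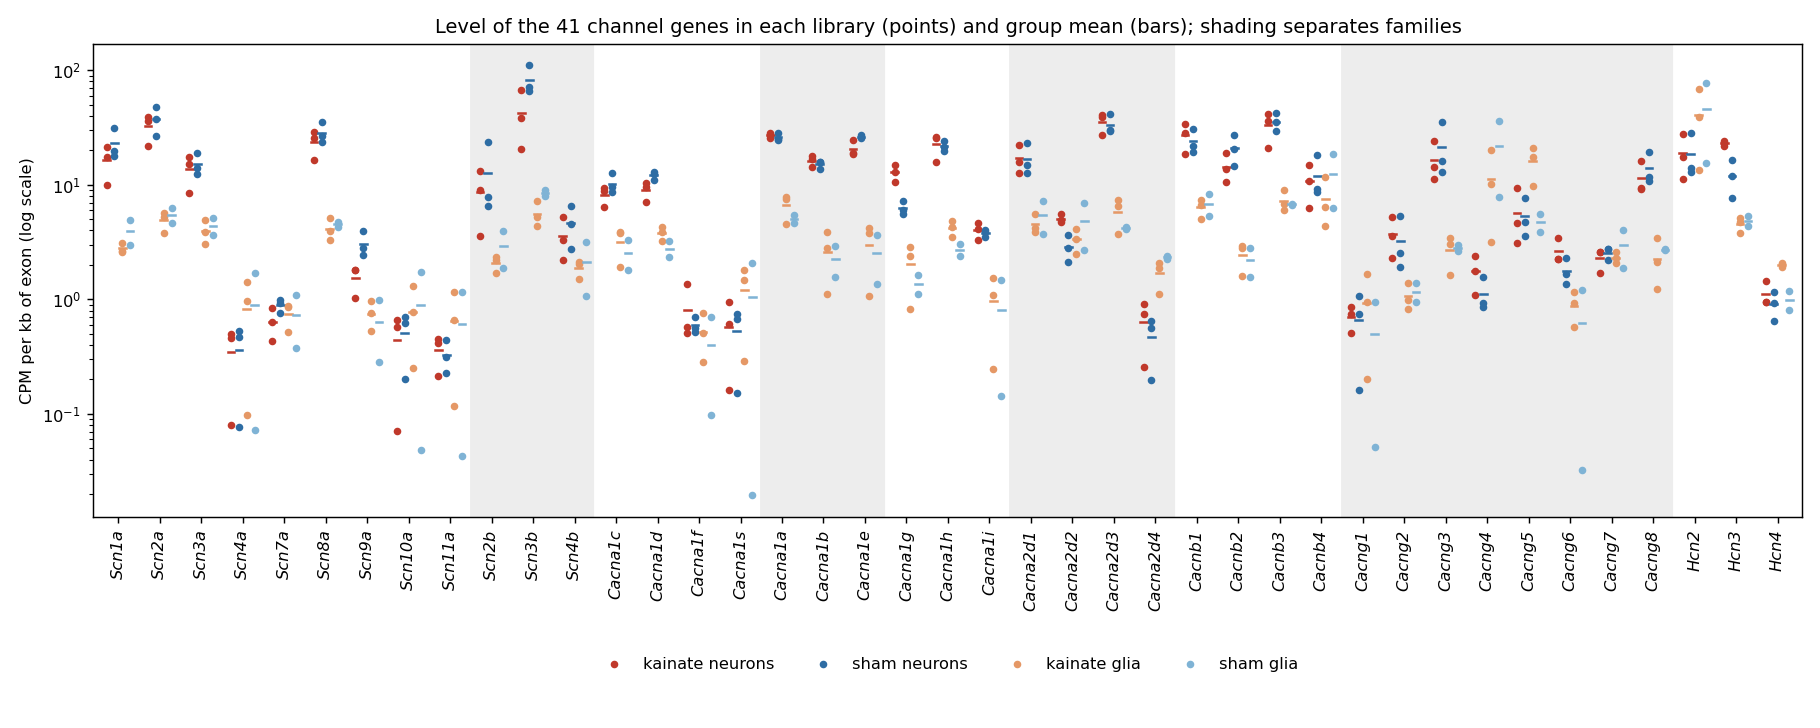
CPM per kb of exon (log scale) of 41 members in each of the 11 libraries, as points, with the group mean as a short bar; red and dark blue are kainate and sham neurons, orange and light blue are kainate and sham glia, and shading separates the 9 families. Most members sit higher in neurons, and Hcn2, Cacng4 and Cacna2d4 have higher means in glia.

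Comparison of the fractions asked which members mark neuronal and which mark glial nuclei. Averaged over both treatments, 28 of 44 members were higher in neurons and 4 higher in glia at FDR below 0.25, the threshold used by the study, in a background of 37.2% of all 40714 genes called and 16.8% called higher in neurons (edgeR quasi-likelihood test with Benjamini-Hochberg adjustment). The median log2 fold change of neurons over glia was 1.73 over the members and -0.47 over all genes. In bulk nuclei, fewer cells of a type and less RNA per cell cannot be told apart.

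The 5 members with the largest excess in neurons came from 5 families. Scn3b, a beta subunit, had a log2 fold change of 3.09 ± 0.37 (SE, FDR = 5.28e-05), with 601, 358 and 387 CPM in sham neurons and 43.9 and 49.3 CPM in sham glia. Cacna1e, the R-type pore, had 652, 659 and 682 CPM in sham neurons against 34.4 and 92.8 CPM in sham glia (log2 fold change 3.08 ± 0.42). Cacnb2, a beta subunit, followed at 2.91 ± 0.33 on the log2 scale, with 272, 362 and 194 CPM in sham neurons and 20.8 and 37.3 CPM in sham glia. The alpha2delta gene Cacna2d3 was at 2.80 ± 0.30, with 359, 257 and 264 CPM against 35.6 and 37.7 CPM, and the AMPA receptor regulator Cacng3 at 2.78 ± 0.37, with 98.4, 45.1 and 36.2 CPM against 7.28 and 8.23 CPM. No neuronal library overlapped a glial library in these 5 genes. The sodium channel pores Scn1a, Scn2a, Scn3a, Scn8a and Scn9a, the sodium channel beta subunits Scn2b, Scn3b and Scn4b, all 3 P/Q-, N- and R-type pores, all 3 T-type pores, Cacna1c, Cacna1d and Hcn3 were among the 28.

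The 4 members higher in glia were Cacng4, Cacna2d4, Hcn2 and Cacng5. Cacng4, an AMPA receptor regulator also known in oligodendrocyte precursors and astrocytes, had 129 and 28.0 CPM in sham glia and 5.57, 3.07 and 3.32 CPM in sham neurons (log2 fold change -3.49 ± 0.50, FDR = 0.000189). Cacna2d4 had 22.7 and 21.4 CPM in sham glia and 1.88, 5.37 and 6.12 CPM in sham neurons (log2 fold change -1.85 ± 0.38, FDR = 0.00308). In both genes no library of sham glia overlapped sham neurons.

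Hcn2 was higher in glia by a log2 difference of -1.21 ± 0.47 for neurons over glia (FDR = 0.102), and its level in glia differed between replicate numbers. It stood at 246 CPM in sham glia replicate 1 and 219 CPM in kainate glia replicate 1, at 126 CPM in kainate glia replicate 2, and at 49.2 and 43.0 CPM in sham and kainate glia replicate 3, which lie close to the 44.8 and 41.1 CPM of sham neurons replicates 2 and 3 (90.6 CPM in replicate 1). The summed level of the oligodendrocyte markers was in the same order, at 36814 and 25861 CPM in replicate 1 of sham and kainate glia. It was 11065 CPM in kainate replicate 2, and 8319 and 4631 CPM in replicate 3 of sham and kainate glia. In these libraries the sums of astrocyte markers (3767, 2269, 990, 959 and 347 CPM) and microglia markers (3163, 1565, 975, 611 and 557 CPM) had that order too. The sums of oligodendrocyte precursor markers were 1370, 824, 399, 453 and 201 CPM. The part of these cell types in the result was not tested. Without sham glia replicate 1 the FDR of Hcn2 was 0.480 and its log2 fold change -0.40.

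Cacng5 was called close to the threshold (FDR = 0.216). Its log2 fold change of neurons over glia was -0.66 ± 0.34 over both treatments, but 0.18 within sham (FDR = 0.900), and the 3 kainate glia libraries stood above every other library. Scn4b had the smallest excess in neurons among the called members at 1.02 ± 0.36 on the log2 scale (FDR = 0.0708), from 32.6, 22.6 and 13.9 CPM in sham neurons and 5.30 and 15.9 CPM in sham glia, and was not called within sham (FDR = 0.316) or within kainate (FDR = 0.298) libraries alone.

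**Figure D2:**
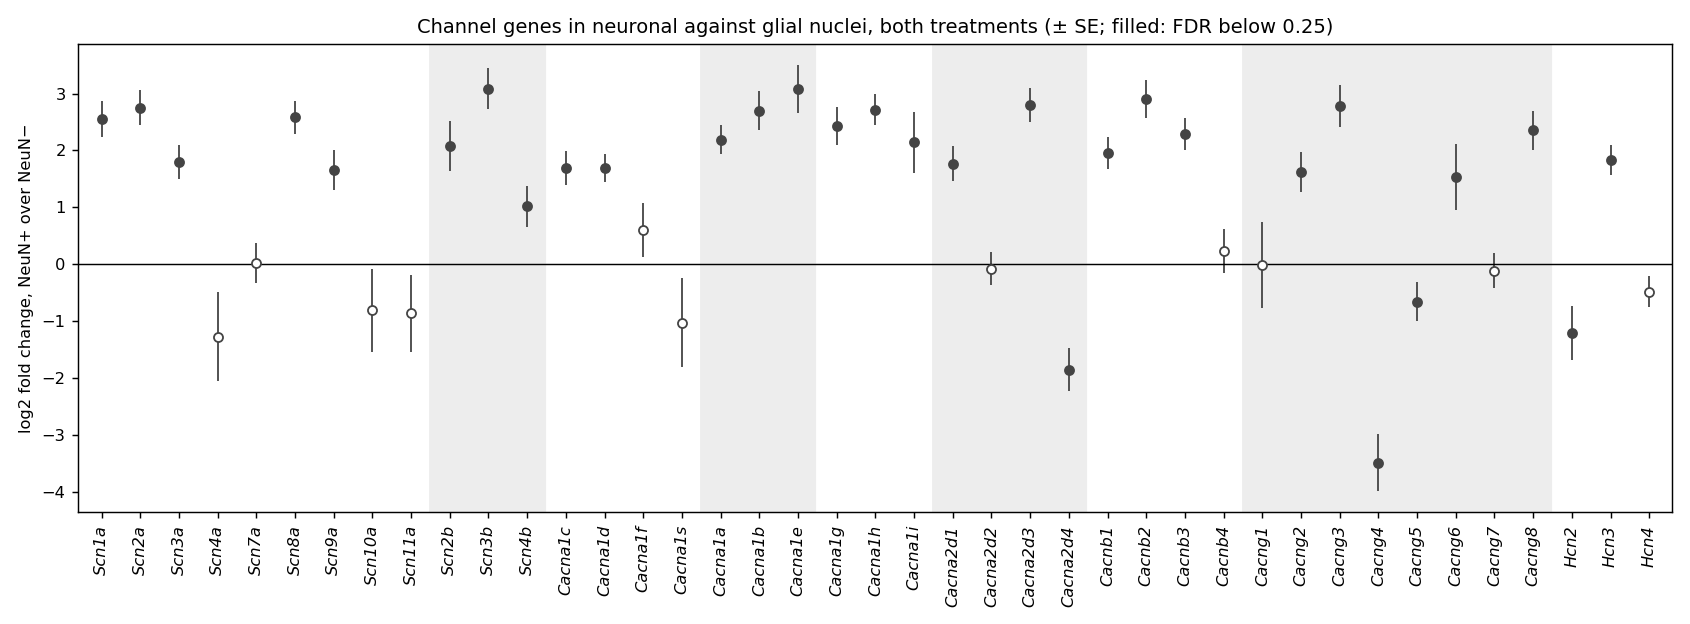
Log2 fold change of NeuN+ over NeuN– libraries ± SE for 41 members, averaged over both treatments (5 glial and 6 neuronal libraries), with filled points for FDR below 0.25. The filled points lie above 0 for 26 of these members, with Scn3b highest at 3.09, and below 0 for Cacng4, Cacna2d4, Hcn2 and Cacng5.

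With the pool as a block, 36 of 44 members were called (30 higher in neurons, 6 higher in glia) in a background of 59.7%. Scn4a (FDR = 0.0399) and Hcn4 (FDR = 0.0635) then joined the members higher in glia, and Cacna1f (FDR = 0.0900) and Cacnb4 (FDR = 0.0840) those higher in neurons.

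Several of the members not called are genes of skeletal muscle, retina or sensory ganglia, and their levels were set beside those of 1454 olfactory and vomeronasal receptor genes, genes best known from sensory epithelia. This list was chosen after the data had been seen. The receptor genes averaged 0.0825 to 0.209 CPM per kb in neurons and 0.0888 to 0.558 CPM per kb in glia. Scn11a lay below 3 times that mean in 10 of 11 libraries, Scn4a in 8, Scn10a in 7 and Cacna1f in 6. Scn4a, for example, stood at 0.0726 CPM per kb in sham glia replicate 1 and at 1.70 CPM per kb in sham glia replicate 3, where the receptor genes averaged 0.0888 and 0.538 CPM per kb. Both replicate 1 libraries of glia were lower in Scn4a, Scn10a, Scn11a, Cacna1s and Cacng1 than the other 3 glial libraries, in either treatment. The replicate 1 libraries of neurons were likewise lowest among neuronal libraries in Scn4a, Scn10a, Scn11a and Cacna1s, but not both in Cacng1. Scn4a stood at 0.0808 and 0.0763 CPM per kb in kainate and sham neurons replicate 1, against 0.461 to 0.531 in the other neuronal libraries. Of Cacna1s, 20.0% of the exonic bases are shared with another annotated gene.

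**Figure D3:**
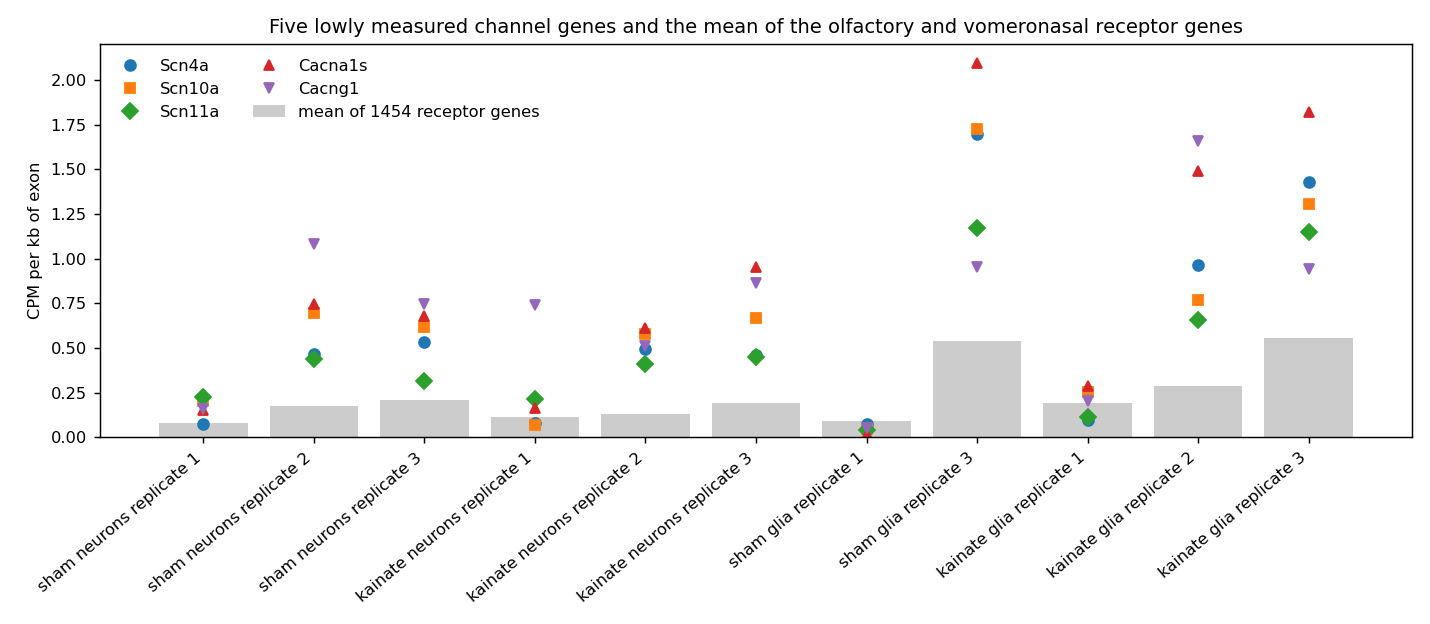
CPM per kb of exon of Scn4a, Scn10a, Scn11a, Cacna1s and Cacng1 (symbols) in each library, over the mean of 1454 olfactory and vomeronasal receptor genes (grey bars). In glia all 5 symbols are lowest in the replicate 1 libraries, and the bars are tallest in the replicate 3 libraries at 0.538 and 0.558. There 4 of the genes peak in glia as well, while Cacng1 peaks in kainate glia replicate 2. In neurons Scn4a, Scn10a, Scn11a and Cacna1s are also lowest in the replicate 1 libraries.

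The main question was whether kainate altered the members in neurons of the contralateral hippocampus. In the comparison of 3 kainate with 3 sham libraries, no member was called at FDR below 0.25 by edgeR, where 67 genes in all (0.165%) were. Unadjusted p fell below 0.05 in 4 members, against 2.09% of all genes, and DESeq2 called 1 member, Hcn3, against 1.66% of the genes it gave an adjusted p. Of the 44 members, 24 had a log2 fold change above 0 and 20 below 0, with a median of 0.04 against -0.01 over all genes. Kainate and sham libraries of 1 replicate number deviated together in neurons (correlations of 0.161 to 0.643), although kainate replicate 2 correlated as much with sham replicate 3 (0.166) as with its own number. The number was therefore also used as a block, and 8 members then passed FDR below 0.25, 4 higher and 4 lower after kainate, in a background of 5.09% of all genes. The libraries of the treatments did not overlap in 6 of 44 members (3 higher, 3 lower), against 7.86% of all genes. The blocked fit has 3 residual degrees of freedom, and values with the block are marked as such.

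Hcn3, an HCN subunit (GRCm38 chr3:89146074-89160196, minus strand), had the smallest p of the members in the unblocked fit of neurons. Its level was 68.4, 32.0 and 49.96 CPM in sham neurons 1 to 3 and 90.6, 101 and 95.4 CPM in kainate neurons 1 to 3. All kainate libraries lay above all sham libraries, the spread was wider among the sham libraries, and the gene was higher in 3 of 3 pairs. The log2 fold change was 0.94 ± 0.33 without the block (FDR = 1, edgeR) and 1.002 ± 0.21 with it (FDR = 0.00115), and DESeq2 gave an FDR of 0.234. In glia it was 22.0 and 18.1 CPM after sham and 15.9, 21.2 and 19.8 CPM after kainate, with overlap. The mean level of Hcn3 was above that of Hcn2 in kainate neurons (23.1 ± 1.27 CPM per kb for Hcn3) and below it in sham neurons, though the ranges of the pair overlapped in both groups.

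Some 17.1% of the exonic bases of Hcn3 are shared with Pklr on the opposite strand, and reads of overlapping genes cannot be told apart without strand. Pklr itself stood at 0.498 to 2.13 CPM in neurons, with a log2 fold change of -0.04 ± 0.82 for kainate over sham. Hcn2 and Hcn4 were at 0.04 ± 0.63 and 0.28 ± 0.37 on the log2 scale.

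Cacna1g, the Cav3.1 T-type pore (chr11:94408391-94474198, minus strand), stood at 73.3, 56.8 and 61.4 CPM in sham neurons and at 132, 152 and 108 CPM in kainate neurons, with no overlap and a higher level in 3 of 3 pairs. Kainate over sham gave a log2 fold change of 1.03 ± 0.41 (FDR = 1) and 1.03 ± 0.20 with the block (FDR = 0.000308). A fit of the neuronal libraries alone, which the study's methods mention, called it at FDR = 0.0917, where 1.29% of the genes tested were called. The other T-type pores were not called, with Cacna1h at 0.05 ± 0.33 and Cacna1i at 0.07 ± 0.66 on the log2 scale, and the share of Cacna1g in the T-type family was 19.7% ± 2.11 in sham and 32.8% ± 1.91 in kainate neurons.

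Cacna2d2, an alpha2delta subunit and a binding site of gabapentinoid drugs (chr9:107399612-107529343, plus strand), had 28.9, 22.5 and 16.7 CPM in sham neurons and 43.96, 39.4 and 37.6 CPM in kainate neurons. The groups did not overlap and all 3 pairs were higher after kainate. On the log2 scale the difference was 0.83 ± 0.39 (FDR = 1) and 0.86 ± 0.21 with the block (FDR = 0.00786). The more abundant Cacna2d1 and Cacna2d3 were at 0.01 ± 0.39 and 0.08 ± 0.35. Cacng4, the AMPA receptor regulator that marked glia, was low in neurons at 5.57, 3.07 and 3.32 CPM in sham and 8.61, 6.32 and 3.92 CPM in kainate libraries. Its log2 fold change was 0.66 ± 0.64 (FDR = 1) and 0.65 ± 0.23 with the block (FDR = 0.176), a call that was lost without each of the 3 pairs.

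Scn3b, the beta3 sodium channel subunit (chr9:40269217-40291618, plus strand), was the member with the smallest FDR in the blocked fit of neurons and was lower after kainate. It stood at 601, 358 and 387 CPM in sham neurons 1 to 3 and at 369, 209 and 112 CPM in kainate neurons 1 to 3. Kainate replicate 1 was slightly above sham replicate 2, so the groups overlapped, but within each replicate number kainate was lower. The log2 fold change was -0.97 ± 0.43 without the block (FDR = 1) and -1.09 ± 0.19 with it (FDR = 7.82e-05). Scn2b and Scn4b were below 0 and not called.

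Scn9a, the Nav1.7 pore (chr2:66480080-66634962, minus strand), had 50.6, 30.9 and 36.2 CPM in sham neurons and 23.1, 23.2 and 13.2 CPM in kainate neurons, with no overlap. Its log2 fold change was -0.98 ± 0.45 (FDR = 1) and -0.996 ± 0.24 with the block (FDR = 0.00577). Scn1a, the Nav1.1 pore known from inhibitory interneurons, had 352, 222 and 200.3 CPM in sham and 239, 197 and 110.3 CPM in kainate neurons, overlapping, with a log2 fold change of -0.51 ± 0.38 and an FDR of 0.137 with the block. The abundant pores Scn2a, Scn3a and Scn8a were not called in either fit, with Scn2a at -0.20 ± 0.37.

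Cacnb2 was at -0.53 ± 0.40 on the log2 scale (FDR = 0.154 with the block), from 272, 362 and 194 CPM in sham to 249, 183 and 141 CPM in kainate neurons, with overlap. Cacna1d, an L-type pore, had 164, 140.4 and 155 CPM in sham and 132, 120.4 and 88.7 CPM in kainate neurons. It was lower in 3 of 3 pairs without overlap, but not called (-0.43 ± 0.31, FDR = 0.314 with the block). Cacna1e, also without overlap, was at -0.35 ± 0.49 (FDR = 0.520 with the block).

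Leaving out either library of a replicate number takes that pair out of the blocked comparison, so the 6 neuronal libraries give 3 distinct checks. Hcn3, Cacna1g and Scn3b were called without each of the 3 pairs, Scn9a and Cacna2d2 without 2 of them, and Scn1a and Cacnb2 without 1. The calls of Scn9a (FDR up to 0.503) and Cacna2d2 (FDR up to 0.474) were lost without kainate or sham neurons replicate 3, Scn1a was called only without kainate or sham replicate 2 and Cacnb2 only without kainate or sham replicate 1. Markers of neuronal types also moved with treatment in the blocked fit of neurons. Of 3 granule cell markers 2 were lower, with summed levels of 337 to 595 CPM in sham and 223 to 382 CPM in kainate neurons, and of 4 interneuron markers 2 were higher, with 174 to 570 CPM and 290 to 607 CPM. Of 2 CA1 pyramidal cell markers 1 was lower (183 to 407 CPM in sham, 127 to 366 CPM in kainate neurons), and of 5 astrocyte markers 3 were higher and 2 lower (152 to 213 CPM and 212 to 284 CPM). Of 6 general neuronal markers 2 were higher (3123 to 6646 CPM in sham, 2835 to 5794 CPM in kainate neurons). The general neuronal and interneuron lists share Gad1 and Gad2, so their counts may rest on the same genes. Of 5 microglia markers 1 was higher and 1 lower (41.2 to 61.4 CPM and 62.4 to 66.7 CPM). Of 5 oligodendrocyte markers 1 was lower (229.6 to 438.7 CPM and 184.9 to 420.5 CPM). The part of all these markers in the results of the channel genes was not tested.

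Of the members that moved in neurons and have an entry in the RefSeq promoter table (GRCm38.p6, 250 bases before to 50 after a start), Cacna2d2, which was higher, and Scn9a, which was lower, are shown 5′ to 3′ in the direction of the gene. The table held 43 promoters of 32 of the 44 members, and none for Hcn3, Cacna1g, Scn3b and Cacng4. Capitals mark matches to the AP-1 motif TGANTCA or the cyclic AMP response element TGACGTCA, each searched on both strands, where neither motif contains the other. Of the 32851 promoters listed, 7.81% held the AP-1 motif and 1.79% the cyclic AMP response element. Neither sequence below holds one, which says only that these letters are not in these windows. The windows are chr9:107399630-107399929 on the plus strand for Cacna2d2 and chr2:66634913-66635212 on the minus strand for Scn9a.
Cacna2d2: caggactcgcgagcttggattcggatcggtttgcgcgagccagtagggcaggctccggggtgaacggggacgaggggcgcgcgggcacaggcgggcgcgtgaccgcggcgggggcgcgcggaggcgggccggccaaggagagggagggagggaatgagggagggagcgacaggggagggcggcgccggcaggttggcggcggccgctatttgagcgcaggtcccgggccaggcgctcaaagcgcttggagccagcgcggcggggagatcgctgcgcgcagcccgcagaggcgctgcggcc
Scn9a: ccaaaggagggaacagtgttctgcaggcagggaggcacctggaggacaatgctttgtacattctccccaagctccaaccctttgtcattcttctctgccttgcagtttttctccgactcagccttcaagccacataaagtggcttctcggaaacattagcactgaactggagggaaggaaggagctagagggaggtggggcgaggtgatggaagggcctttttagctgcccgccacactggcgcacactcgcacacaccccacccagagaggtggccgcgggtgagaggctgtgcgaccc

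**Figure D4:**
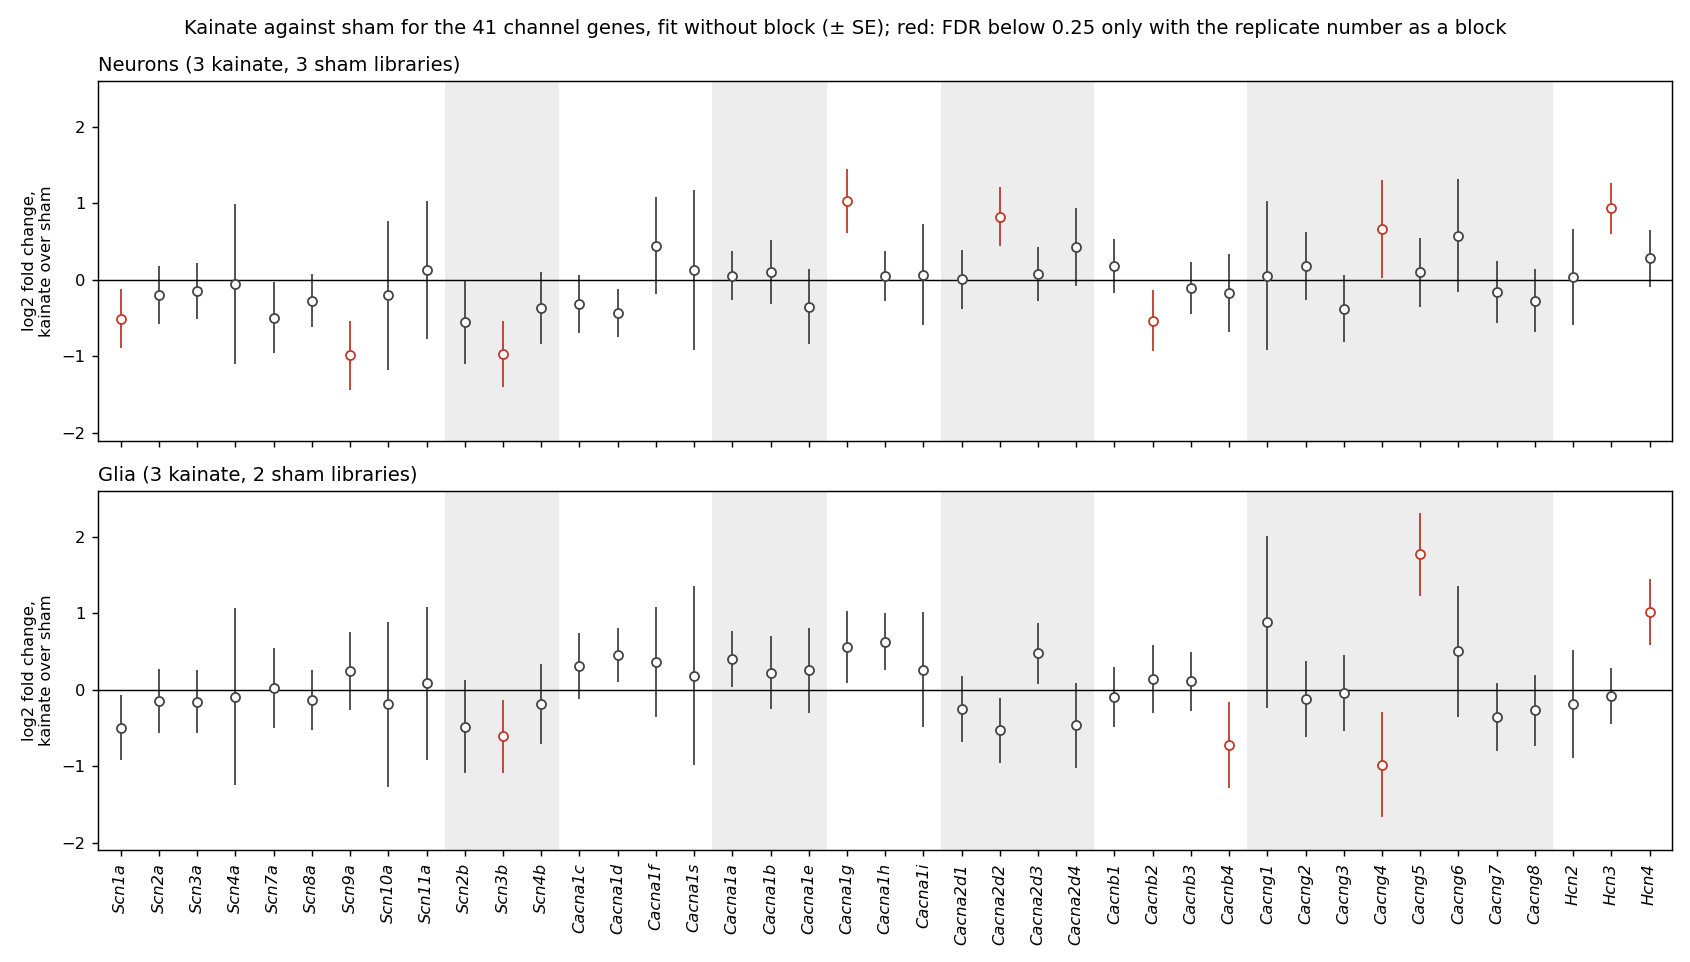
Log2 fold change of kainate over sham ± SE from the fit without block for 41 members in neurons (top) and glia (bottom), with red for the members that passed FDR below 0.25 with the replicate number as a block. The red points of neurons are Hcn3, Cacna1g, Cacna2d2 and Cacng4 above 0 and Scn3b, Scn9a, Scn1a and Cacnb2 below 0, and in glia Cacng5 stands highest at 1.77.

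In glia, 3 kainate libraries were compared with 2 sham libraries. No member passed FDR below 0.25 without the block, where 41 genes in all (0.101%) did. Unadjusted p fell below 0.05 in 2 members, against 2.05% of all genes, and DESeq2 called 1 member, Cacng5, against 1.43% of the genes it gave an adjusted p. With the replicate number as a block, 5 members passed, 2 higher and 3 lower after kainate, in a background of 5.79%. Kainate glia replicate 2 has no sham library of its number, so the blocked values rest on the pairs of replicates 1 and 3. With 2 sham libraries the correlations of glia cannot show whether a number is shared, and the block was taken over from the neurons of the same pools. Where a library of either pair is left out, 1 pair of glia remains and its spread is taken from the neuronal pairs, so such values are a comparison of 1 kainate with 1 sham library. Libraries did not overlap in 6 of 44 members (4 higher, 2 lower), against 8.22% of all genes.

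Cacng5, an atypical AMPA receptor regulatory protein (chr11:107874605-107915055, minus strand), was the member with the largest difference. It had 21.3 and 15.0 CPM in sham glia 1 and 3 and 81.1, 67.1 and 37.4 CPM in kainate glia 1 to 3. Every kainate library lay above both sham libraries and above all 6 neuronal libraries, which ranged from 11.9 to 36.1 CPM. These levels rest on 333 and 302 counts in sham glia and on 1293 to 1976 counts in kainate glia. The log2 fold change was 1.77 ± 0.54 without the block (FDR = 1, edgeR), 1.63 ± 0.26 with it (FDR = 2.01e-05), and DESeq2 gave an FDR of 0.151. Cacng5 made up 13.9% ± 4.56 (n = 2) of the summed gamma subunit level in sham glia and 42.8% ± 1.31 (n = 3) in kainate glia. In neurons its log2 fold change was 0.10 ± 0.45. It was called with the block from the replicate 1 pair alone and from the replicate 3 pair alone. By mean level it was the leading gamma gene of kainate glia, at 16.1 ± 5.82 CPM per kb, overlapping Cacng4 at 11.2 ± 8.61 CPM per kb.

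The RefSeq table holds 2 starts of Cacng5, shown because the gene carries the largest difference of the members. The upstream start, chr11:107915006-107915305 on the minus strand, holds a match to the AP-1 motif, TGACTCA, that begins 214 bases before the start. The downstream start, chr11:107911313-107911612 on the minus strand, holds none. It was the only match to either motif among the 43 promoters of members, and a match only describes the sequence.
Cacng5 upstream start: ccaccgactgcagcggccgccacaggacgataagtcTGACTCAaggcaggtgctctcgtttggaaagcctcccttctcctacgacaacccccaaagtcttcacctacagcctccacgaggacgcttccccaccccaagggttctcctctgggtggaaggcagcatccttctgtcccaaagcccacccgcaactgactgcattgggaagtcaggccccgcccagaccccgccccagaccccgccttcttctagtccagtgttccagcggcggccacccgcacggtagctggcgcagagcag
Cacng5 downstream start: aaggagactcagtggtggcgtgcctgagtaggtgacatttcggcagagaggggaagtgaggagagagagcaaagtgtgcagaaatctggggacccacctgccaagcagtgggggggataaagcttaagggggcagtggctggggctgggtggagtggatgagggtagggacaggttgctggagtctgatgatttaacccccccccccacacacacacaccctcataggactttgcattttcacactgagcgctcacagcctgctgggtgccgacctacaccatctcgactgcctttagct

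Cacng4, which lies on the same chromosome (chr11:107732357-107794557, minus strand), had the opposite sign in glia. It had 129 and 28.0 CPM in sham glia 1 and 3 and 72.5, 36.002 and 11.4 CPM in kainate glia 1 to 3. The groups overlapped widely, since both replicate 1 libraries were high, and within each pair kainate was lower. On the log2 scale the difference was -0.98 ± 0.69 (FDR = 1) and -1.06 ± 0.26 with the block (FDR = 0.00991). Without sham glia replicate 1 and without the block the sign turned, to 0.54 (FDR = 0.980), and the blocked call was lost without either replicate 3 library (FDR = 0.280 and 0.304). The 3 oligodendrocyte precursor markers were all lower in the blocked fit of glia, with summed levels of 1370 and 453 CPM in sham glia 1 and 3 and 824, 399 and 201 CPM in kainate glia 1 to 3. Of the astrocyte markers 3 of 5 (959 to 3767 CPM in sham, 347 to 2269 CPM in kainate glia), of the oligodendrocyte markers 3 of 5 and of the microglia markers 2 of 5 (611 to 3163 CPM and 557 to 1565 CPM) were lower as well. Of 6 neuronal markers 1 (465 to 647 CPM in sham, 513 to 745 CPM in kainate glia) and of 4 interneuron markers 1 (49.4 to 109 CPM and 96.3 to 133 CPM) were higher. Gad1 and Gad2 are on both lists, so these counts may rest on the same gene. No marker was at 0 in any library, and the part of the markers in the result was not tested.

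Hcn4, the HCN subunit best known from the cardiac pacemaker, was low in glia but did not overlap, with 4.98 and 7.19 CPM in sham and 11.7, 12.7 and 12.5 CPM in kainate libraries. Its log2 fold change was 1.01 ± 0.43 (FDR = 1) and 1.01 ± 0.34 with the block (FDR = 0.125). The call was lost without either library of the replicate 1 pair. In neurons Hcn4 had 3.96, 7.12 and 5.74 CPM in sham and 5.83, 8.82 and 5.85 CPM in kainate libraries, with overlap (0.28 ± 0.37).

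Scn3b was lower in glia too, where it is scarce. It had 43.9 and 49.3 CPM in sham glia and 23.8, 39.2 and 28.6 CPM in kainate glia, with no overlap (log2 fold change -0.61 ± 0.48, FDR = 1, and -0.83 ± 0.24, FDR = 0.0370, with the block), and the call was lost without either library of the replicate 1 pair. Cacnb4, a beta subunit, was at -0.72 ± 0.56 (FDR = 0.245 with the block), from 166 and 55.9 CPM to 105, 57.3 and 39.4 CPM, with overlap. That call was lost without any 1 of the 5 glial libraries, and 15.99% of its exonic bases are shared with another gene. The T-type pore Cacna1h had 23.5 and 29.6 CPM in sham and 34.0, 47.0 and 41.9 CPM in kainate glia without overlap (0.63 ± 0.37, FDR = 0.393 with the block). Cacna1d, lower in neurons, had 29.4 and 40.8 CPM in sham and 41.1, 49.1 and 53.8 CPM in kainate glia (0.45 ± 0.35, FDR = 0.528 with the block). Cacna2d2, higher in neurons, had 55.1 and 21.5 CPM in sham and 32.9, 27.0 and 19.8 CPM in kainate glia (-0.53 ± 0.42, FDR = 0.657 with the block). No L-type, P/Q-, N-, R- or T-type pore passed the test in glia in either fit.

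**Figure D5:**
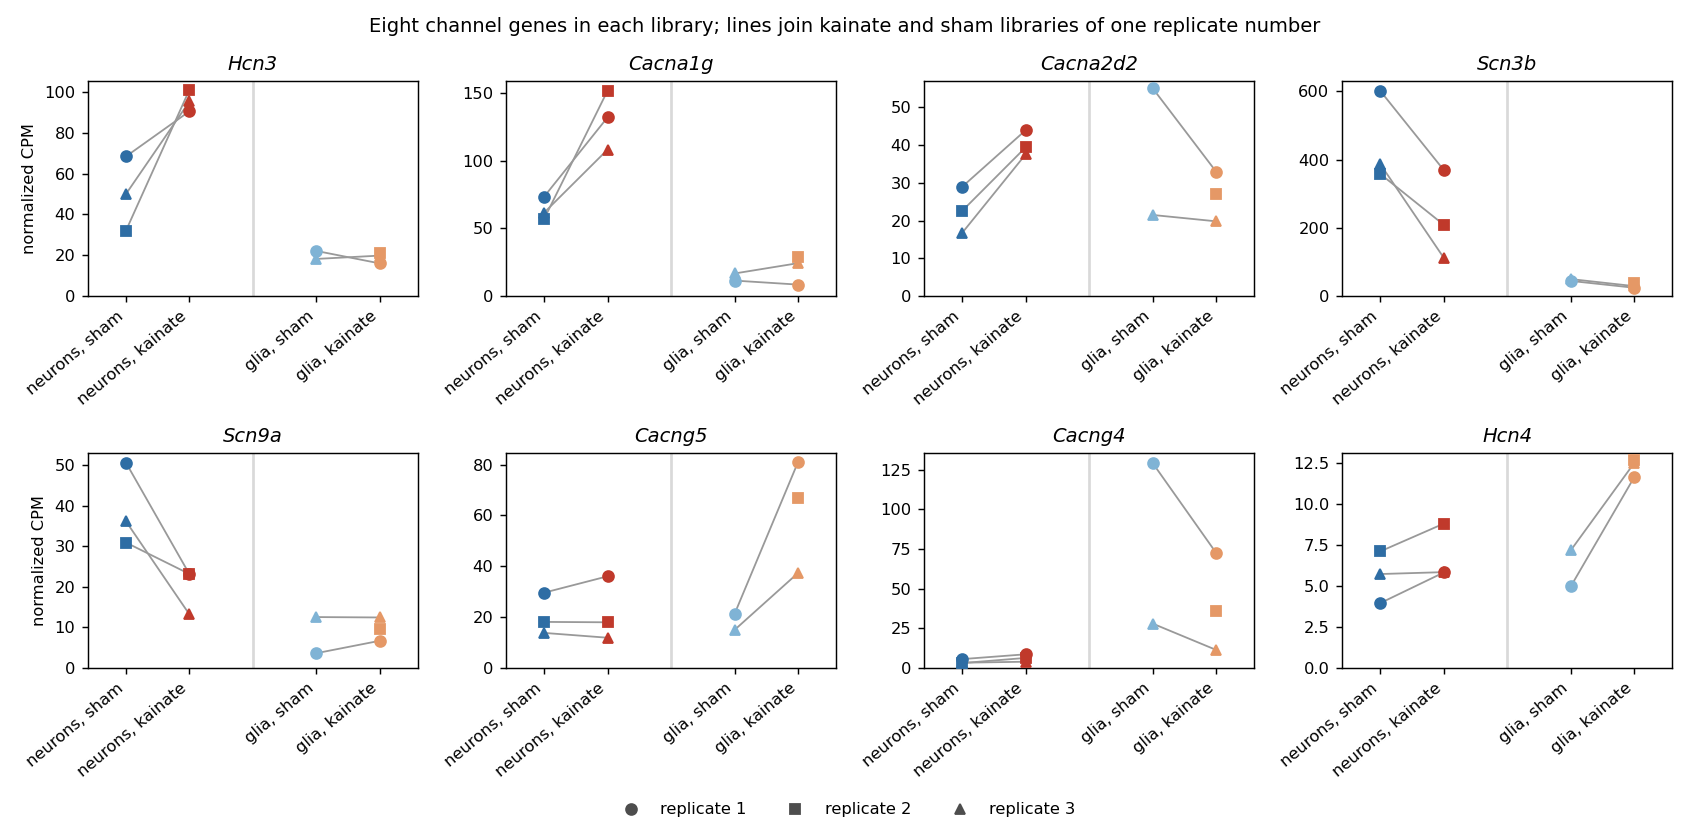
Normalized CPM of Hcn3, Cacna1g, Cacna2d2, Scn3b, Scn9a, Cacng5, Cacng4 and Hcn4 in each library, by fraction and treatment, with a symbol for each replicate number and lines joining kainate and sham libraries of the same number. In neurons every line of Hcn3, Cacna1g and Cacna2d2 points up and every line of Scn3b and Scn9a down, and in glia both lines of Cacng5 point up and both of Cacng4 down.

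Whether the kainate effect differed between the fractions was tested as an interaction. Without a block, edgeR called 1 gene in all (0.00246%) and no member, with unadjusted p below 0.05 in 2 members (0.909% of all genes), and DESeq2 called no member (0.174% of the genes it gave an adjusted p). With the pool as a block, which pairs neurons and glia of the same mice, 9 genes (0.0221%) and no member were called, with Cacng5 lowest among the members at FDR = 0.603. Blocking on the replicate number called 788 genes (1.94%) and 6 members. Kainate minus sham was more positive in neurons for Cacng4 (log2 difference 1.71 ± 0.35, FDR = 0.00348), Cacna2d2 (1.29 ± 0.33, FDR = 0.0375) and Hcn3 (1.17 ± 0.33, FDR = 0.0867). It was more positive in glia for Cacng5 (-1.60 ± 0.33, FDR = 0.00398), Scn9a (-1.38 ± 0.38, FDR = 0.0738) and Cacna1d (-0.89 ± 0.29, FDR = 0.212). For Scn3b the log2 difference was -0.26 ± 0.30 (FDR = 1), from changes that were negative in both fractions, and for Cacna1g it was 0.94 ± 0.32 (FDR = 0.254). Hcn4 and Cacna2d4, at -0.73 ± 0.57 and 0.89 ± 0.75 without the block, were not called in any of these fits. Cacna2d4 had 2.42, 8.56 and 7.03 CPM in kainate neurons and 10.6, 19.7 and 17.7 CPM in kainate glia 1 to 3.

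A list of 29 genes whose proteins bind or regulate these channels was read in the same fits, and all 29 were tested. No partner was called for kainate without the block by edgeR, where 0.165% of all genes were called in neurons and 0.101% in glia. Unadjusted p fell below 0.05 in 4 partners in neurons and 1 in glia, against 2.09% and 2.05% of all genes. DESeq2 called 1 partner, Rrad in neurons (FDR = 0.0667), where it called 1.66% of the genes it gave an adjusted p. With the block, 6 of 14 calcium channel partners were higher in neurons and none lower, in a background of 5.09% of all genes called and 3.19% called higher. None of the 12 sodium channel or 3 HCN channel partners was called, and the lists were not tested against each other. Rem2, Gem and Rrad, which had the 3 smallest p in neurons without the block, belong to the RGK family of small GTPases, which inhibit high-voltage-activated calcium channels. The other RGK gene of the list, Rem1, was not called and stood at -0.60 ± 0.90 on the log2 scale, with 0.521 ± 0.441 CPM in sham and 0.337 ± 0.239 CPM in kainate neurons (SD, n = 3). Rem2 had 35.3, 12.1 and 25.01 CPM in sham neurons and 100.1, 47.8 and 54.3 CPM in kainate neurons (log2 fold change 1.48 ± 0.51, FDR = 1, and 8.44e-07 with the block). Gem had 1.41, 3.19 and 2.16 CPM in sham and 5.55, 6.91 and 5.13 CPM in kainate neurons (1.37 ± 0.48, FDR = 0.00306 with the block). Rrad had 0.537, 0.574 and 0.548 CPM in sham and 3.13, 0.917 and 2.61 CPM in kainate neurons (1.98 ± 0.60, FDR = 0.859, and 0.0245 with the block). Rem2, Gem and Rrad did not overlap between treatments in neurons.

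Other partners higher in neurons with the block were Stac, an adaptor of L-type channels (log2 fold change 1.21 ± 0.30, FDR = 0.0100, with the block), and Rimbp2, a scaffold that ties calcium channels to the release site (0.71 ± 0.20, FDR = 0.0320, with the block). In glia Gem and Rem2 were the only partners called with the block, where 5.79% of all genes were called and 2.93% called higher. Gem had 6.58 and 7.49 CPM in sham and 33.1, 11.8 and 10.8 CPM in kainate glia (log2 fold change 1.395 ± 0.55, FDR = 1, and 1.42 ± 0.37, FDR = 0.0184, with the block), and Rem2 2.36 and 6.25 CPM in sham and 5.33, 7.50 and 14.1 CPM in kainate glia (1.06 ± 0.59, FDR = 1, and 1.17 ± 0.29, FDR = 0.0111, with the block). Rimbp2, with the third smallest p in glia without the block, was not called there (0.83 ± 0.54, FDR = 0.722 with the block). For the interaction no partner was called by edgeR or DESeq2. No partner had an unadjusted p below 0.05 without the block, against 0.909% of all genes. Fgf11 had the smallest p (0.85 ± 0.55, FDR = 1), followed by Rrad and Nedd4l.

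Between the fractions 26 of 29 partners were called, 20 higher in neurons and 6 higher in glia, in a background of 37.2% of all genes called and 16.8% called higher in neurons. Of the sodium channel partners, 9 of 12 were higher in neurons, among them Unc80 of the NALCN complex (2.87 ± 0.30), Sptbn4 of the axon initial segment (2.89 ± 0.33) and Fgf14 (2.45 ± 0.27), and Nfasc was higher in glia (-0.81 ± 0.30). Of the calcium channel partners, 11 of 14 were higher in neurons, led by Rimbp2 (3.21 ± 0.40) and Rims1 (2.87 ± 0.32), and Gem, Rem1 and Rrad were higher in glia. Of the HCN partners, Pex5l (TRIP8b, which controls HCN trafficking) at -0.99 ± 0.28 and Lrmp at -1.75 ± 0.33 were higher in glia.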

How the data were processed

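Data were taken from 11 mRNA-seq libraries (SMART-Seq v4) of NeuN+ and NeuN– nuclei; 11 bisulfite libraries of the same study were not used here. According to the study's methods the authors trimmed reads with Trim Galore (version 0.4.3), aligned them with Rsubread and counted unique reads per gene of GENCODE M16 (mm10) with featureCounts, and deposited raw counts per gene, with no normalization; the strand setting of the counting is not given in the sources used here. Tissue is given as the left hippocampus in the sample names and in the study's methods and as the right in one protocol field.

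Of the 53379 genes, 40714 passed filterByExpr (minimum count 10), after 105 that have no symbol had been dropped. Their counts were TMM scaled and fitted jointly for the 11 libraries, with 1 mean for each of the 4 groups (R 4.3.3, edgeR 4.0.16, quasi-likelihood test with Benjamini-Hochberg adjustment over all tested genes, FDR below 0.25; common biological coefficient of variation 0.600). Every p and FDR without another name is from edgeR, and DESeq2 1.42.0 was an alternative. Exon lengths for CPM per kb and gene positions were from GENCODE M21 (mm10, GRCm38). The procedure was also run on simulated counts, with less spread than these libraries, larger changes and no replicate effect. That run therefore cannot show how reliable the calls made here are. Library totals were 12058875 to 45428465 counts, and counting error was not compared with the spread between pools. The reads carry no molecular identifiers.

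The labels number the replicates alike in both treatments. Deviations of kainate and sham libraries from their group means correlated at 0.161 to 0.643 for the 3 same-number pairs of neurons and at -0.600 to 0.418 for different numbers. Since the same-number pairs of neurons were above 0.1, blocked values are printed wherever the block changed a call. In glia the values were 0.760 and 0.787, but the 2 sham libraries deviate from their mean as mirror images, so different numbers give the same values with the sign turned and no separate check was possible there. The same-number correlations come from the data, and the labels do not say what a number shares. In neurons, pairs of different numbers gave -0.600 to -0.215 where they included replicate 1. Between replicates 2 and 3 they gave 0.166 and 0.418. According to the study's methods, pools held differing numbers of mice and libraries were sequenced on more than 1 instrument. The labels do not tie either to a replicate number, and their part in the blocked calls was not tested. NeuN+ and NeuN– libraries of 1 pool come from the same mice, which the pool block uses.

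Members and lists were chosen with earlier results of these data known. Values per library are given for members called for kainate in either fraction or for the interaction, with or without the replicate block, filled to 8 by smallest p, for the highest and lowest called members between fractions (5 at most each way, sham libraries), and for the leading member of each family in sham neurons and sham glia. Of partner genes, those called or the 3 with the smallest p are named. Counts cover all members and partners, but values of a few of these genes are not reported here, and the plots of all members leave them out. The shares of a family, the blocked fits without 1 library and the receptor gene list were added after the data had been seen. Other alternatives were other size factors, filters, the newer edgeR method, FDR below 0.05, RNA input as a covariate, separate fits and leaving out libraries.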

Additional observations from a re-analysis of the deposited data

Results flagged for a closer look

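In 6 members the test of the difference of the kainate effect between neurons and glia, blocked on the replicate number, was called, in a background of 1.94% of all genes. That fit does not pair neurons and glia of the same pool. The log2 difference, kainate minus sham in neurons less the same in glia, was 1.71 for Cacng4 (FDR = 0.00348, edgeR), -1.60 for Cacng5 (FDR = 0.00398), 1.29 for Cacna2d2 (FDR = 0.0375), -1.38 for Scn9a (FDR = 0.0738), 1.17 for Hcn3 (FDR = 0.0867) and -0.89 for Cacna1d (FDR = 0.212). Without the block the differences were 1.64, -1.67, 1.35, -1.23, 1.02 and -0.88 in the same order, each at FDR = 1. With the pool as a block FDR was 0.603 for Cacng5 and 1 for the other 5. Markers of oligodendrocyte precursors (3 of 3), astrocytes (3 of 5) and oligodendrocytes (3 of 5) were lower after kainate in the blocked fit of glia, and markers of granule cells (2 of 3) lower and of interneurons (2 of 4) higher in that of neurons. Their part in these differences was not tested.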

How the results depend on the processing

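The replicate block changed most calls. Without it no member was called for kainate, and with it 4 members were higher and 4 lower in neurons, 2 higher and 3 lower in glia, and 3 and 3 for the interaction (0 and 0 with the pool as a block). Of other settings, DESeq2 called 1 member higher in neurons (Hcn3) and 1 in glia (Cacng5). The separate fit of neurons called 1 higher (Cacna1g), where 1.07% of the genes tested were called higher. The separate fit of glia called 0 of the 39857 genes it tested. With 1 library left out of the blocked fit, chosen after seeing the data, 2 to 3 members were higher and 1 to 9 lower in neurons (3 higher and 3 lower without either replicate 1 library, 3 and 9 without either replicate 2 library, 2 and 1 without either replicate 3 library), where 4.52% and 4.55%, 7.3% and 7.29%, and 1.92% and 1.95% of all genes were called. In glia 1 to 6 were higher and 1 to 5 lower (1 and 1 without either replicate 1 library, 2 and 2 without kainate replicate 2, 6 and 4 without kainate replicate 3, 6 and 5 without sham replicate 3), where 1.97% to 9.75% of all genes were called. Without the block, leaving out a library gave 0 to 7 members higher in glia, and the 7, without sham glia replicate 3, included Cacna1f, Cacna1i, Cacna1s, Cacng6, Scn10a and Scn11a, and none of the 7 is among the 5 called with the block. In that fit 5.53% of all genes were called higher and 1.06% lower. Sham glia then has 1 library, replicate 1, which is assumed to vary like the other groups.

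Between fractions, 28 to 31 members were higher in neurons (13.7% to 22.3% of all genes) and 3 to 7 in glia (12.1% to 37.5%) over the fits without 1 library, with 7 without sham glia replicate 1, where 37.5% of all genes were called higher in glia. The count higher in glia was 2 at FDR below 0.05 (7.42% of all genes), 2 within sham (7.63%) and 8 with edgeR's newer method (35.4% of all genes), which added Cacna1s, Hcn4, Scn11a and Scn4a. Hcn2 lost its call without both low-input libraries (FDR = 0.530) and with RNA input as a covariate (FDR = 0.409), and Cacng5 under both (FDR = 0.408 and 0.384). Cacng5 turned sign within sham, to 0.18. Hcn2 was not called within sham or within kainate libraries alone.

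In glia without the block, Cacng4, Cacnb4 and Cacna2d2 turned sign without both low-input libraries (0.61, 0.39 and 0.32 on the log2 scale) and without sham glia replicate 1 (0.54, 0.29 and 0.33), with lowest values over the fits without 1 library of -1.86, -1.33 and -1.06. These values were uncalled throughout, and the cause was not tested. No level named in a family moved by more than 1 SD with DESeq2 size factors. Without both low-input libraries sham glia has 1 library, and Hcn2 there was 15.2 in place of 46.2 CPM per kb. Of the named log2 fold changes, 210 of 252 in neurons, 190 of 216 in glia, 162 of 168 for the interaction and 200 of 220 between fractions kept their direction and their side of the threshold, which for kainate and the interaction mostly means that they stayed uncalled and is no sign of stability. No detection limit was computed.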
